A study of Homo sapiens with 12 samples.

Results

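The cells described are those that kept the SOX2 reporter while WNT3A was raised over a 10-fold range. They are the 5 SOX2-positive libraries of a series of 12 RNA-seq libraries. All libraries come from ESI017 SOX2::mCitrine, a human embryonic stem cell line that carries the fluorescent protein mCitrine as a reporter of SOX2. Micropatterned colonies grew for 3 days in N2B27, a serum-free medium. FGF8 was added at 200 ng/ml, together with 1 of 3 doses of WNT3A (100, 300 or 1000 ng/ml). Colonies were then dissociated and sorted by mCitrine into SOX2-positive and SOX2-negative cells. There were 2 SOX2-positive libraries at 100 ng/ml, 1 at 300 ng/ml and 2 at 1000 ng/ml, and 5 SOX2-negative libraries from the same colonies. Another 2 libraries came from control colonies in N2B27 without FGF8 or WNT3A, for which the labels give no gate. FGF8 was the same at every dose, so the dose series varies WNT3A alone, while the controls differ from it in both agents. The labels describe the second set as a biological repeat, and it lacks the 300 ng/ml dose. The reporter line is 1 line, whether it is a single clone is not given in the sources used here, and nor are the limits of the sort gates. Members were chosen by gate and dose label alone, and no measured value entered the choice.

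WNT3A is a secreted ligand that stabilises beta-catenin, which then acts with TCF/LEF factors on target genes. In the mammalian embryo WNT signalling induces NODAL and the T-box genes EOMES and TBXT in the primitive streak, where epiblast cells leave the epithelium and become mesoderm and endoderm. WNT together with FGF also gives neural tissue a posterior identity. NODAL acts through activin receptors, the co-receptor TDGF1 and SMAD2/3 with FOXH1, and it induces its own inhibitors, the LEFTY proteins and CER1. SOX2 is kept by pluripotent and neural cells and is lost as streak cells differentiate.

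Levels are given in CPM, read counts scaled for library size and composition by TMM over the 12 libraries. Total estimated counts were 16483717 to 23655097 in the SOX2-positive libraries. SOX2 itself (ENSG00000181449, chromosome 3, 181711924 to 181714436, GRCh38) checks the gate. It stood at 467 and 444 CPM at 100 ng/ml (repeats 1 and 2), 456 CPM at 300 ng/ml and 418 and 420 CPM at 1000 ng/ml. The SOX2-negative libraries held 1.85 to 5.98 CPM and the controls 652 and 676 CPM. Within the gate SOX2 did not pass the test for a dose trend (log2 change per 10-fold dose -0.12 ± 0.07 SE, adjusted p = 0.556). This and all adjusted p-values come from the quasi-likelihood test of edgeR, adjusted by Benjamini and Hochberg over all genes, unless another tool is named. The defining streak genes EOMES, NODAL and TBXT were all detected in each of the 5 libraries. Markers of the other gate were low beside the SOX2-negative libraries. Of the 14 definitive endoderm genes the summed level was 86 to 120 CPM against 1450 to 2070 CPM in the SOX2-negative libraries, or 4.28 to 8.28% of the partner library. The 13 lateral and cardiac mesoderm genes stood at 1.62 to 3.93%, the 15 mesenchymal genes at 6.83 to 12.2% and the 15 primitive streak genes at 2.75 to 8.54% of the partner. Controls held 194 and 206 CPM of the endoderm genes and 82.8 and 70 CPM of the lateral and cardiac mesoderm genes. They held 559 and 729 CPM of the mesenchymal genes and 34 and 29.9 CPM of the streak genes. TWIST2, a mesenchymal regulator, was at 0 in all 5 SOX2-positive libraries. SOX17, the defining endoderm regulator, stood at 1.78 to 8.46 CPM against 340 to 827 CPM. In bulk RNA a gene that is higher in a few cells cannot be told apart from one that is higher in all.

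The first question was which genes graded with WNT3A dose inside the gate. The trend was the log2 change per 10-fold dose, which is the change from 100 to 1000 ng/ml, in a model with the repeat as a block. Of 16189 genes tested, 111 were called (0.686%), 84 higher (0.519%) and 27 lower (0.167%) at an adjusted p under 0.05 by edgeR. Rising genes had a median trend of 0.94, a 1.92-fold rise per 10-fold dose, and 38 of them rose more than 2-fold. Falling genes had a median trend of -0.62, and 8 fell more than 2-fold. Several other fits gave fewer calls, and DESeq2 gave more. Without the replicate block edgeR called 0 genes (597 at an unadjusted p under 0.05). With the block kept but the spread estimated from all 12 libraries it also called 0 (391 at an unadjusted p under 0.05). With identifiers of 1 symbol kept apart it called 28 higher and 6 lower. Of the 42 called genes named here, 33 were lost in that fit, 7 were kept (TBXT, MSX2, MAGEB17, GDF3, TVP23C-CDRT4, SFRP1 and IFITM1), and WNT3 and IER3, with several identifiers, were not compared. DESeq2 with the block called 126 higher and 58 lower. WNT3A 1000 SOX2-positive replicate 1 carried much of the count, since without it 46 genes were called higher and 16 lower, of which 39 and 8 were among the calls above. Leaving out 1 of the other 4 libraries gave 178 to 655 higher and 110 to 613 lower.

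Among the secreted Nodal ligands, GDF3 was the gene with the lowest p of the whole trend. GDF3 (ENSG00000184344, chromosome 12, 7689782 to 7695776, GRCh38) is a growth and differentiation factor of pluripotent cells that can signal through the Nodal receptors. It stood at 19.2 and 6.14 CPM at 100 ng/ml, 38.3 CPM at 300 ng/ml and 69.4 and 22.7 CPM at 1000 ng/ml. Its level was higher at 1000 than at 100 ng/ml in each repeat and both doses' highest values came from repeat 1, but the groups did not overlap. GDF3 rose by 1.86 ± 0.12 (SE) per 10-fold dose on the log2 scale, 3.64-fold (adjusted p = 0.00079, edgeR), by 3.62-fold in repeat 1 and 3.70-fold in repeat 2. SOX2-negative libraries held 0 to 3.30 CPM of GDF3 and the controls 1.60 ± 0.248 CPM (SD, n = 2). Every SOX2-positive library stood above all of these.

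NODAL (ENSG00000156574, chromosome 10, 70432315 to 70447951, GRCh38) stood at 2.38 and 1.61 CPM at 100 ng/ml, 6.94 CPM at 300 ng/ml and 15 and 2.53 CPM at 1000 ng/ml. Both repeats were higher at the top dose, by 6.32-fold in repeat 1 and 1.58-fold in repeat 2. The trend did not pass the test (1.74 ± 0.41 SE, adjusted p = 0.131, edgeR), though DESeq2 called it (adjusted p = 0.018). Its slope differed between repeats (adjusted p = 0.039, edgeR). Controls held 0.849 ± 0.165 CPM (SD, n = 2) and the SOX2-negative libraries 0.513 to 5.53 CPM of NODAL. GDF1, a partner of NODAL in heterodimers, stood at 3.17 and 0 CPM at 100 ng/ml, 3.14 CPM at 300 ng/ml and 25.5 and 1.31 CPM at 1000 ng/ml. GDF1 was called higher by edgeR (adjusted p = 0.037) but not by DESeq2 (adjusted p = 0.165), nor without WNT3A 1000 SOX2-positive replicate 1 (adjusted p = 0.383). It shares its locus with CERS1, and its control libraries stood at 0 and 27.8 CPM, so this gene is uncertain. FURIN, a protease that cleaves Nodal precursors, rose from 71.9 ± 13.7 to 102 ± 27.3 CPM (SD, n = 2 each, 1.41-fold, adjusted p = 0.034, edgeR). By edgeR it was not called without WNT3A 1000 SOX2-positive replicate 1 (adjusted p = 0.249).

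No receptor or co-receptor gene of the pathway passed the test. TDGF1 (Cripto), the co-receptor, stood at 397 and 348 CPM at 100 ng/ml, 390 CPM at 300 ng/ml and 387 and 411 CPM at 1000 ng/ml, against 21.3 and 14.4 CPM in the controls. It did not pass the test for a dose trend (0.10 ± 0.08 SE, adjusted p = 0.666, edgeR). The receptor genes ACVR1B, ACVR1C, ACVR2A and ACVR2B had trends of -0.27, -0.86, -0.15 and -0.17, none of which passed. Of the 11 tested genes of ligands, proteases, receptors and co-receptors, 3 were called higher and none lower, against 0.519% and 0.167% of all genes. Their median trend was 0.10. Over all genes tested the median was 0.0026. Of 8 transducers, SMAD7 alone was called, against 0.519% of all genes called higher. FOXH1, the DNA-binding partner of SMAD2/3, stood at 113 to 134 CPM in all 5 libraries (adjusted p = 0.996, edgeR). Controls held 47.8 and 33.9 CPM of SMAD7, an inhibitor induced by the pathway. In the gate SMAD7 stood at 23.8 and 12.2 CPM at 100 ng/ml, 33.5 CPM at 300 ng/ml and 52.1 and 20.7 CPM at 1000 ng/ml. It rose 1.94-fold per 10-fold dose (adjusted p = 0.015, edgeR), and was not called without WNT3A 1000 SOX2-positive replicate 1 (adjusted p = 0.091).

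Targets and antagonists of Nodal were higher at the top dose. All 13 tested were higher at 1000 than at 100 ng/ml in both repeats, against 27.1% of all genes tested (26.1% were lower in both), their median trend was 1.68, and 5 were called higher (CER1, LEFTY2, MIXL1, SMAD7 and TBXT). Without WNT3A 1000 SOX2-positive replicate 1, 2 of them were called. The list was drawn up with earlier results of these libraries known, so its direction is not independent evidence. LEFTY2 (ENSG00000143768, chromosome 1, 225936598 to 225941489, GRCh38), a secreted Nodal inhibitor, stood at 1.64 and 0 CPM at 100 ng/ml, 6.37 CPM at 300 ng/ml and 14.0 and 2.53 CPM at 1000 ng/ml. The groups did not overlap, and LEFTY2 rose by 3.59 ± 0.55 (SE) per 10-fold dose on the log2 scale (adjusted p = 0.027, edgeR). CER1 (ENSG00000147869, chromosome 9, 14719724 to 14722717, GRCh38), which binds and blocks Nodal, BMP and WNT ligands, stood at 0.397 and 0 CPM at 100 ng/ml, 2.57 CPM at 300 ng/ml and 9.61 and 0.181 CPM at 1000 ng/ml. Its repeat 2 values lie at the level of a few counts, and its call (4.43 ± 0.61 SE, adjusted p = 0.017, edgeR) rests on repeat 1. CER1 was lost by limma-trend (adjusted p = 0.121) and, by edgeR, without WNT3A 1000 SOX2-positive replicate 1 (adjusted p = 0.298). LEFTY1, the close relative of LEFTY2, stood at 0 to 5.66 CPM and did not pass (adjusted p = 0.131, edgeR). GSC, a homeobox target of Nodal, reached 1.65 CPM and did not pass (adjusted p = 0.459, edgeR).

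Of the T-box and homeobox genes of the streak, TBXT and MIXL1 were called higher and EOMES missed the threshold. TBXT (ENSG00000164458, chromosome 6, 166157656 to 166168700, GRCh38), the brachyury gene of streak and early mesoderm, stood at 8.48 and 1.20 CPM at 100 ng/ml, 13.9 CPM at 300 ng/ml and 26.5 and 4.03 CPM at 1000 ng/ml. Each repeat rose by a like factor, 3.13-fold and 3.37-fold, while repeat 2 lay below repeat 1 at both doses, so the groups overlapped. TBXT was called higher (1.68 ± 0.17 SE, 3.21-fold, adjusted p = 0.0046, edgeR), also without WNT3A 1000 SOX2-positive replicate 1 (adjusted p = 0.042). MIXL1 (ENSG00000185155, chromosome 1, 226223618 to 226227054, GRCh38), a homeobox gene of the streak, stood at 6 and 0.825 CPM at 100 ng/ml, 10.9 CPM at 300 ng/ml and 18.9 and 1.72 CPM at 1000 ng/ml. MIXL1 was called by edgeR (1.46 ± 0.23 SE, adjusted p = 0.033), but not by limma-trend (adjusted p = 0.065) or without WNT3A 1000 SOX2-positive replicate 1 (adjusted p = 0.298). EOMES (ENSG00000163508, chromosome 3, 27715949 to 27722711, GRCh38) stood at 14.6 and 6.27 CPM at 100 ng/ml, 26.8 CPM at 300 ng/ml and 49.2 and 9.18 CPM at 1000 ng/ml. EOMES missed the threshold (1.23 ± 0.23 SE, adjusted p = 0.058, edgeR) and was called by DESeq2 (adjusted p = 6.4e-04), and its slope was smaller in repeat 2 (adjusted p = 0.0079, edgeR). As a share of the SOX2-negative library of the same colonies, EOMES came to 4.34 to 14.4%, MIXL1 to 11.1 to 17.5% and TBXT to 11.1 to 49.9%. The part of carried-over SOX2-negative cells in these trends was not tested.

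**Figure D1:**
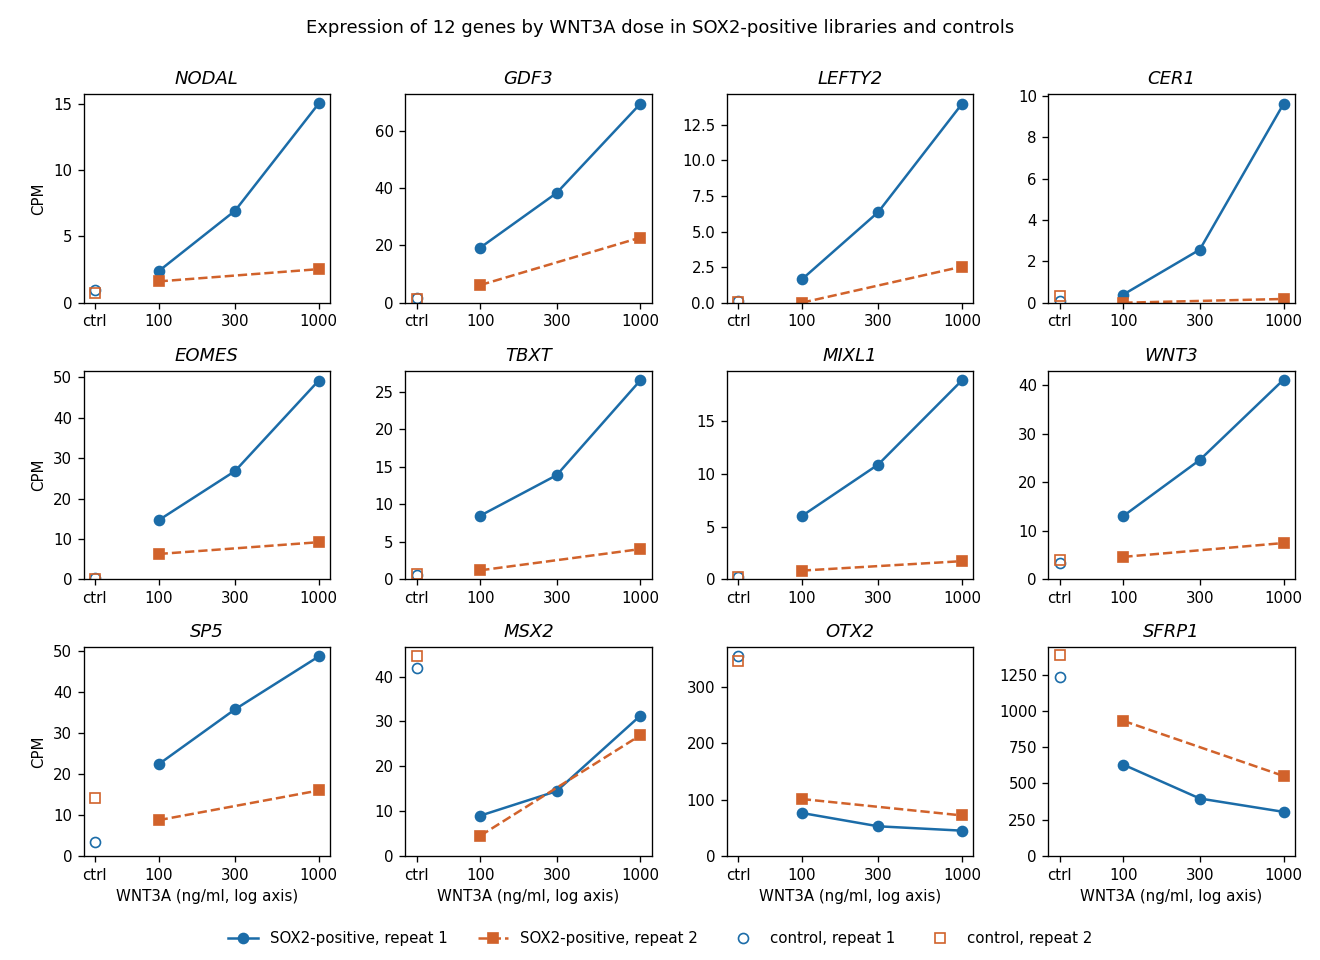
Expression of 12 genes in CPM (vertical axes, linear) against WNT3A dose in ng/ml (log axis, with the controls at the left) in SOX2-positive libraries. Filled circles are repeat 1, filled squares repeat 2 and open symbols the 2 controls, with 1 library a point and no error bars. In all 12 panels repeat 1 and repeat 2 move the same way from 100 to 1000 ng/ml. Levels are often set apart by repeat, as for TBXT at 8.48 to 26.5 CPM against 1.20 to 4.03 CPM. For MSX2 they lie closer, at 31.3 and 26.9 CPM at 1000 ng/ml (repeats 1 and 2).

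Of 15 primitive streak genes tested, 14 were higher at 1000 ng/ml in both repeats, against 27.1% of all genes, and 5 were called higher (APLNR, CER1, MIXL1, TBXT and WNT3), against 0.519% of all genes. Their median trend was 1.24. Without WNT3A 1000 SOX2-positive replicate 1, 2 were called. WNT3, the endogenous WNT ligand of the early streak, stood at 13 and 4.62 CPM at 100 ng/ml, 24.6 CPM at 300 ng/ml and 41.1 and 7.46 CPM at 1000 ng/ml. WNT3 rose by 1.24 ± 0.21 (SE) on the log2 scale (adjusted p = 0.037, edgeR), and was not called without WNT3A 1000 SOX2-positive replicate 1 (adjusted p = 0.214). It was the 1 gene called of 13 WNT ligands tested, against 0.519% of all genes called higher. APLNR, the apelin receptor of early mesoderm, stood at 8.08 and 3.71 CPM at 100 ng/ml, 11.2 CPM at 300 ng/ml and 17.7 and 17.1 CPM at 1000 ng/ml. The 1000 ng/ml repeats of APLNR lay together and above every other library of the gate (1.65 ± 0.23 SE, adjusted p = 0.019, edgeR). Its level was 0.963 to 2.58% of that in the SOX2-negative partner.

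The promoters of 4 of the rising genes are shown because their listed motifs are those of the factors that WNT and Nodal signals act through. Each is the 250 bases before the RefSeq start on GRCh38.p14, 5′ to 3′ on the gene's strand, with matches in capitals. The 4 motifs searched on both strands were CTTTGAT (TCF/LEF), AATNNACA (FOXH1), TCACACCT (T-box) and GTCTAGAC (SMAD palindrome). The windows are chr1:226223414-226223663 for MIXL1 (plus strand), chr9:14722734-14722983 for CER1 (minus strand), chr12:7695776-7696025 for GDF3 (minus strand) and chr2:170715087-170715336 for SP5 (plus strand).
MIXL1: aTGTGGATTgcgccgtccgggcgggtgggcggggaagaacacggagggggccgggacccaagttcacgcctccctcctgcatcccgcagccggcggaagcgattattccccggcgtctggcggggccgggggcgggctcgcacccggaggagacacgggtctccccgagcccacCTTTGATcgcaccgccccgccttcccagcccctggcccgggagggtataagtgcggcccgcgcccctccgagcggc
CER1: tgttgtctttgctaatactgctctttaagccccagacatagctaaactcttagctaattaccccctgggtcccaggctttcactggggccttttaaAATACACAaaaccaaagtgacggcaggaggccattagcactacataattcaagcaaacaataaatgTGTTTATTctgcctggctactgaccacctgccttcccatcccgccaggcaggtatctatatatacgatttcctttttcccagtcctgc
GDF3: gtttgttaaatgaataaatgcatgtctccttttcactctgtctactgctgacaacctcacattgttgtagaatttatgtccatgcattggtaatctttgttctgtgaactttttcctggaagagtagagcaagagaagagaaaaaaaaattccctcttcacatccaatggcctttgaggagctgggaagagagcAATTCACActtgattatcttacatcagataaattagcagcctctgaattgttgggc
SP5: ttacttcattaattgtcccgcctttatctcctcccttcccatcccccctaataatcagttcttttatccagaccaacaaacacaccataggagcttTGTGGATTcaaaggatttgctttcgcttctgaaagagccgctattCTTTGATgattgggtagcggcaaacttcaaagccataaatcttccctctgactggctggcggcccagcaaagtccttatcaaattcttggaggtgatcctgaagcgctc

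In MIXL1 and SP5 the capitals mark a FOXH1 match on the reverse strand followed by a TCF/LEF match, in CER1 a FOXH1 match on each strand, and in GDF3 a single FOXH1 match. The windows of NODAL, EOMES, TBXT and WNT3 held none of the 4 motifs. Over the full window of 300 bases that runs from 250 before to 50 after the start, 61 of the 84 rising genes had a promoter in the table. TCF/LEF letters were in 3 of them (4.92%), against 1.38% of the promoters of 11792 tested genes and 2.64% of all 27305 promoters. FOXH1 letters were in 7 (11.5%), against 5.39% and 11.1%. T-box letters were in 1 of the 61 (1.64%), against 0.755% of tested genes' promoters. SMAD letters were also in 1 (1.64%), against 0.17%. Of 19 promoters of falling genes, 1 held TCF/LEF letters (5.26%), 2 FOXH1 (10.5%), 0 T-box and 0 SMAD letters. These shares describe letters in a short window and no binding was measured.

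Of 16 feedback targets of WNT tested, 2 were called higher (SP5 and BAMBI), against 0.519% of all genes. Of the 16, 9 were higher in both repeats, against 27.1% of all genes, and their median trend was 0.41. SP5 (ENSG00000204335, chromosome 2, 170715351 to 170718078, GRCh38), a zinc-finger gene induced directly by WNT, stood at 22.3 and 8.70 CPM at 100 ng/ml, 35.7 CPM at 300 ng/ml and 48.6 and 15.9 CPM at 1000 ng/ml. SP5 doubled per 10-fold dose (1.00 ± 0.13 SE, adjusted p = 0.013, edgeR). By edgeR it lay just outside the threshold without WNT3A 1000 SOX2-positive replicate 1 (adjusted p = 0.055). AXIN2, the scaffold protein whose gene is the usual read-out of beta-catenin, stood at 48.3 and 41.3 CPM at 100 ng/ml, 46.8 CPM at 300 ng/ml and 45.7 and 34.9 CPM at 1000 ng/ml. AXIN2 did not pass the test (-0.16 ± 0.10 SE, adjusted p = 0.557, edgeR), and neither did LEF1 (1.78 to 7.15 CPM, adjusted p = 0.443), NKD1 (16 to 23.9 CPM, adjusted p = 0.430) or DKK1 (0.783 to 3.30 CPM, adjusted p = 0.609). The SOX2-negative partners held 80.2 to 230 CPM of NKD1 and 156 to 466 CPM of SP5.

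Genes of the BMP pathway moved at both ends. BMP ligands are held in check by secreted chordin, CHRD, and induce ID and MSX genes and the inhibitors SMAD6 and BAMBI. Of 17 tested, 4 were called higher (MSX2, SMAD6, ID2 and BAMBI) and 1 lower (CHRD), against 0.519% and 0.167% of all genes. In both repeats 11 of the 17 were higher and 1 lower, against 27.1% and 26.1% of all genes. Their median trend was 0.70. MSX2 (ENSG00000120149, chromosome 5, 174724533 to 174730893, GRCh38) stood at 8.97 and 4.49 CPM at 100 ng/ml, 14.4 CPM at 300 ng/ml and 31.3 and 26.9 CPM at 1000 ng/ml. Both 1000 ng/ml repeats stood above every other library of the gate (2.18 ± 0.19 SE, 4.53-fold, adjusted p = 0.0019, edgeR). Controls had more MSX2 than any library of the gate, 41.9 and 44.6 CPM. SMAD6 stood at 15.8 and 15 CPM at 100 ng/ml, 17.7 CPM at 300 ng/ml and 26.6 and 36.1 CPM at 1000 ng/ml (1.02 ± 0.15 SE, adjusted p = 0.022, edgeR). Its controls stood at 50.3 and 35.1 CPM. The slopes of BAMBI and ID2 also differed between repeats, at 1.41-fold and 2.46-fold for BAMBI (adjusted p = 0.0029, edgeR) and 1.37-fold and 1.95-fold for ID2 (adjusted p = 0.033, edgeR). Over both repeats ID2 rose 1.63-fold from 111 ± 41.1 CPM and BAMBI 1.86-fold from 44.5 ± 17.6 CPM at 100 ng/ml (SD, n = 2, adjusted p = 0.033 and 0.045, edgeR). CHRD (ENSG00000090539, chromosome 3, 184380073 to 184390736, GRCh38) stood at 23.8 and 14.4 CPM at 100 ng/ml, 21.9 CPM at 300 ng/ml and 11.4 and 5.70 CPM at 1000 ng/ml. It fell by 1.19 on the log2 scale (SE 0.18, adjusted p = 0.027, edgeR) and was not called without WNT3A 1000 SOX2-positive replicate 1 (adjusted p = 0.076). BMP4, the ligand, stood at 3.62 to 7.31 CPM and did not pass (adjusted p = 0.224, edgeR).

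FGF8 was constant over the doses. Of 15 FGF targets tested 6 were higher and 0 lower at 1000 ng/ml in both repeats, against 27.1% and 26.1% of all genes. Their median trend was 0.20. By edgeR 0 of the 15 were called, which is near the 0.686% of all genes. DUSP6, the ERK phosphatase, stood at 70.0 and 26.9 CPM at 100 ng/ml, 94.1 CPM at 300 ng/ml and 99.7 and 18.1 CPM at 1000 ng/ml. It was higher with dose in repeat 1 and lower in repeat 2, and this difference of slopes passed the test (adjusted p = 8.2e-04, edgeR). SPRY4 stood at 83.5, 53.9, 122, 116 and 50.9 CPM in the same order (adjusted p = 0.654 for the trend, edgeR). FGF17, a ligand of the FGF8 subfamily, was called higher at the edge of the threshold (adjusted p = 0.0499, edgeR). FGF17 stood at 1.93 and 0.412 CPM at 100 ng/ml, 4.80 CPM at 300 ng/ml and 11.1 and 1.04 CPM at 1000 ng/ml. That call was lost by limma-trend (adjusted p = 0.087), with a filter of 1 CPM in 2 libraries (adjusted p = 0.055) and without WNT3A 1000 SOX2-positive replicate 1 (adjusted p = 0.433). Endogenous FGF8 was at 0 to 1.06 CPM and did not pass.

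Of 13 mesenchymal genes tested, 4 were called higher (FN1, MMP2, SNAI1 and CDH11), against 0.519% of all genes. In both repeats 7 of the 13 were higher and 2 lower, against 27.1% and 26.1% of all genes, and the median trend was 0.29. The count called was 2 without WNT3A 1000 SOX2-positive replicate 1. Fibronectin, FN1, stood at 198 and 265 CPM at 100 ng/ml, 351 CPM at 300 ng/ml and 390 and 501 CPM at 1000 ng/ml. It rose 1.92-fold with groups that did not overlap (adjusted p = 0.016, edgeR), at 3.13 to 5.33% of the SOX2-negative partner. SNAI1, a repressor of E-cadherin, stood at 11.9 and 7.17 CPM at 100 ng/ml, 13.1 CPM at 300 ng/ml and 24.1 and 14.2 CPM at 1000 ng/ml (2.02-fold, adjusted p = 0.033, edgeR; 0.204 without WNT3A 1000 SOX2-positive replicate 1). The gelatinase MMP2 rose 1.62-fold and the cadherin CDH11 1.67-fold (adjusted p = 0.020 and 0.045, edgeR), and CDH11 was not called without that library (adjusted p = 0.254). E-cadherin itself, CDH1, stood at 378 to 539 CPM and did not pass (-0.30 ± 0.07 SE, adjusted p = 0.147, edgeR). KDR, a VEGF receptor, rose 1.60-fold from 102 ± 8.55 to 166 ± 34.2 CPM (SD, n = 2 each, adjusted p = 0.020, edgeR). Without WNT3A 1000 SOX2-positive replicate 1 edgeR did not call it (adjusted p = 0.082). The matrix genes HAS2, FBN2, COL6A1 and COL6A2, chosen after their values were seen, were also called higher (adjusted p = 0.027, 0.0081, 0.033 and 0.016, edgeR). All 9 lateral and cardiac mesoderm genes tested were higher at 1000 ng/ml in both repeats, against 27.1% of all genes. Their median trend was 2.44, and the highest value among them was 7.31 CPM (BMP4). By edgeR 0 of the 9 were called, near the 0.686% of all genes.

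**Figure D2:**
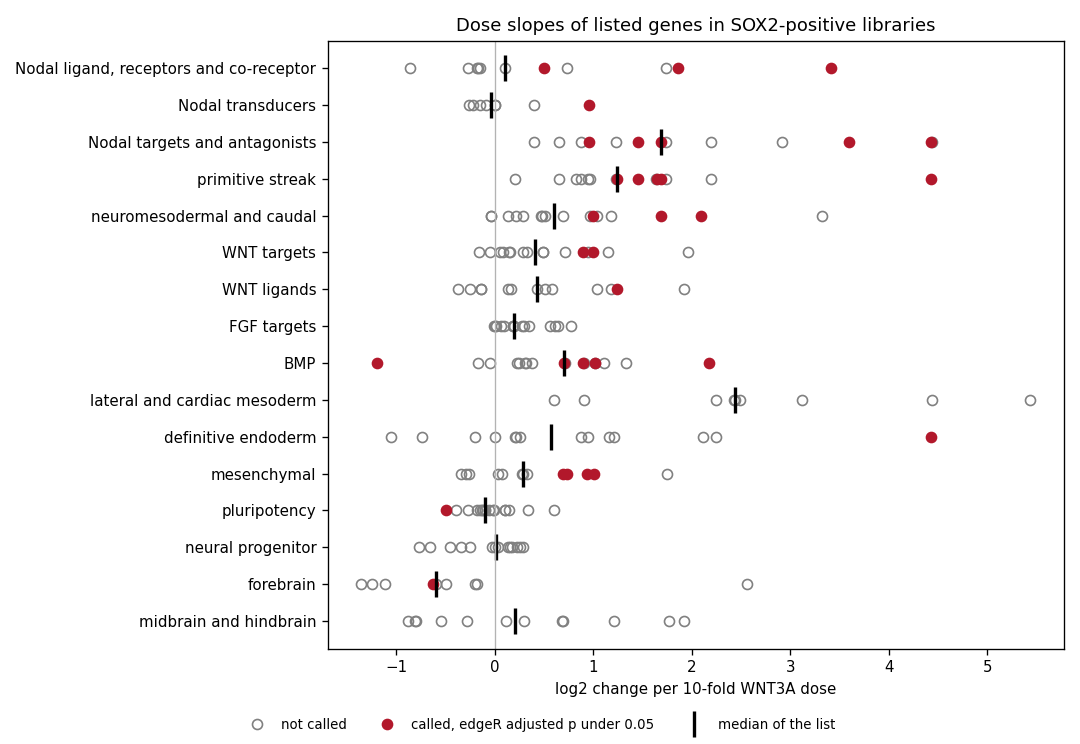
Dose slopes (horizontal axis, log2 change per 10-fold WNT3A dose) of the tested genes of 16 lists in SOX2-positive libraries. Each circle is 1 gene, filled where edgeR called it, and the black bar is the list's median. The lateral and cardiac mesoderm list, with 0 genes called, has a median of 2.44. The Nodal target and streak lists have medians of 1.68 and 1.24, while FGF targets lie near 0.20 and pluripotency genes near -0.09.

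The genes that fell with dose included neural and epiblast regulators. OTX2 (ENSG00000165588, chromosome 14, 56799905 to 56810479, GRCh38), a homeobox gene of epiblast, forebrain and midbrain, stood at 76.1 and 101 CPM at 100 ng/ml, 52.5 CPM at 300 ng/ml and 44.7 and 71.8 CPM at 1000 ng/ml. Per 10-fold dose it fell by 0.63 on the log2 scale (SE 0.10, adjusted p = 0.034, edgeR). It was not called without WNT3A 1000 SOX2-positive replicate 1 (slope -0.61 in that fit). Controls, which took no part in the fit, held 355 and 346 CPM of OTX2. SFRP1, a secreted WNT inhibitor, stood at 629 and 931 CPM at 100 ng/ml, 395 CPM at 300 ng/ml and 303 and 551 CPM at 1000 ng/ml. SFRP1 fell by 0.90 on the log2 scale (SE 0.10, adjusted p = 0.0052, edgeR), also without WNT3A 1000 SOX2-positive replicate 1 (adjusted p = 0.025 in that fit), with controls above every dose at 1234 and 1385 CPM. PRDM14, a repressor that guards pluripotency, fell from 82.7 ± 2.55 to 58.5 ± 0.767 CPM (SD, n = 2 each, adjusted p = 0.036, edgeR; 0.185 without WNT3A 1000 SOX2-positive replicate 1). Its groups did not overlap. The guidance ligand SEMA6D and the polarity gene CRB2 fell to 0.425 and 0.513 of their level per 10-fold dose (adjusted p = 0.037 and 0.014, edgeR). The zinc-finger gene BNC2 fell to 0.489 and the IGF-binding protein gene IGFBP3 to 0.455 (adjusted p = 0.018 and 0.017, edgeR).

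Of 17 pluripotency genes PRDM14 alone passed, called lower, against 0.167% of all genes. In both repeats 2 of the 17 were higher and 9 lower, against 27.1% and 26.1% of all genes. The median trend of the 17 was -0.09. POU5F1 stood at 1556 and 990 CPM at 100 ng/ml, 1807 CPM at 300 ng/ml and 1928 and 1279 CPM at 1000 ng/ml (0.34 ± 0.07 SE, adjusted p = 0.080, edgeR; DESeq2 called it, adjusted p = 0.0028). NANOG stood at 62.5 and 30.4 CPM, then 88.6 CPM, then 118 and 36.4 CPM (0.61 ± 0.14 SE, adjusted p = 0.119, edgeR; DESeq2, adjusted p = 0.015). Both were higher at 1000 ng/ml in each repeat, above the 466 ± 51.8 and 8.35 ± 2.34 CPM of the controls (SD, n = 2). Of 9 forebrain genes tested OTX2 alone passed, called lower, against 0.167% of all genes. LHX5 stood at 9.52 and 33.8 CPM at 100 ng/ml, 2.71 CPM at 300 ng/ml and 3.48 and 51.3 CPM at 1000 ng/ml, with a slope that differed between repeats (adjusted p = 0.0016, edgeR). Controls held 356 and 468 CPM of LHX5. RAX and PAX6 reached at most 2.67 and 4.07 CPM. By edgeR 0 of 14 neural progenitor and 0 of 12 midbrain and hindbrain genes were called, near the 0.686% of all genes.

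The HOX genes, CDX1 and CDX2 were barely detected in the SOX2-positive libraries at any dose. Of the 39 HOX genes in the table only HOXB1 was expressed enough to be tested, and the highest HOX level in any SOX2-positive library was 1.06 CPM (HOXB1, adjusted p = 0.381, edgeR). CDX1 reached 1.65 CPM and CDX2 1.06 CPM, and neither passed (adjusted p = 0.265 and 0.898, edgeR). Of 16 neuromesodermal and caudal genes tested, 3 were called higher (TBXT, SP5 and FGF17), against 0.519% of all genes. Only 1 of these was called without WNT3A 1000 SOX2-positive replicate 1. In both repeats 11 of the 16 were higher and 0 lower, against 27.1% and 26.1% of all genes, and the median trend was 0.60.

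Among the 10 steepest called rises outside the lists were MAGEB17, a cancer-testis antigen gene, and the unnamed models AC256236.1 and AC098582.1. MAGEB17 stood at 5.35 and 1.28 CPM at 100 ng/ml, 10.6 CPM at 300 ng/ml and 23.7 and 4.80 CPM at 1000 ng/ml (2.06 ± 0.19 SE, adjusted p = 0.0028, edgeR). Both unnamed models were at 0 in each 100 ng/ml library and at 1.95 to 2.53 CPM at 1000 ng/ml, at least 31.5-fold and 36.7-fold higher against 3 counts over the group. AC256236.1 was not called by DESeq2 (adjusted p = 0.777), by limma-trend (adjusted p = 0.085) or by edgeR without WNT3A 1000 SOX2-positive replicate 1 (adjusted p = 0.170). AC098582.1 was not called by edgeR without that library (adjusted p = 0.086). On the falling side the read-through models HSPE1-MOB4 and TVP23C-CDRT4 and the model AC002310.4 were steepest. HSPE1-MOB4 and AC002310.4 were at 0 at 1000 ng/ml, at least 37.8-fold and 23.2-fold lower. HSPE1-MOB4 was not called by DESeq2 (adjusted p = 0.758) or limma-trend (adjusted p = 0.085), nor AC002310.4 by edgeR without WNT3A 1000 SOX2-positive replicate 1 (adjusted p = 0.108). Read-through models share reads with their neighbour genes, so the counting can move reads between them, and they are uncertain. The cell cycle inhibitor CDKN1A and the cyclin CCND2 rose 1.92-fold and 1.41-fold (adjusted p = 0.025 and 0.029, edgeR). They were the 2 genes called of 17 cell cycle genes, against 0.519% of all genes called higher. Neither was called by edgeR without WNT3A 1000 SOX2-positive replicate 1 (adjusted p = 0.078 and 0.117). IFITM1, an interferon-induced membrane protein gene, stood at 153 and 90.0 CPM at 100 ng/ml, 212 CPM at 300 ng/ml and 312 and 167 CPM at 1000 ng/ml. It was the gene called of 16 MHC class I and interferon genes (adjusted p = 0.0014, edgeR), against 0.519% of all genes called higher. Of 15 surface ectoderm and amnion genes, GATA3 was called higher and IGFBP3 lower, against 0.519% and 0.167% of all genes. Controls held 82.6 and 59.2 CPM of GATA3. In the gate GATA3 stood at 2.53 and 3.83 CPM at 100 ng/ml, 3.18 CPM at 300 ng/ml and 5.60 and 11.4 CPM at 1000 ng/ml (adjusted p = 0.0491, edgeR). It was not called by edgeR without WNT3A 1000 SOX2-positive replicate 1 (adjusted p = 0.115), without WNT3A 1000 SOX2-positive replicate 2 (adjusted p = 0.122) or by limma-trend (adjusted p = 0.052). By edgeR 0 genes were called in the lists of 18 glycolysis, 19 cholesterol synthesis, 13 mitochondrially encoded, 15 Notch, 13 retinoic acid, 10 hedgehog, 10 epithelial, 7 presomitic and 7 germ cell genes tested, which in lists this short is near the 0.686% of all genes.

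The second question was how far the 2 repeats agreed. Across the 16189 genes the log2 step from 100 to 1000 ng/ml in repeat 1 correlated with that in repeat 2 at a Pearson r of 0.0875 and a Spearman rho of 0.0984, and 53.3% of genes moved the same way. These are correlations across genes, which are not independent and share the library of each dose. Over the 11836 genes at 5 CPM or more the r was 0.24 and 54.6% moved the same way. All 111 genes called by the trend moved the same way in both repeats, which the call itself favours. Repeats also differed in level. Of all genes tested 1663 (10.3%) differed between the repeats, 790 higher (4.88%) and 873 lower (5.39%) in repeat 2, while 80 of the 111 graded genes did. Of the 84 rising genes 57 were lower in repeat 2 and 3 were higher. For 30 of the 84 the library at 1000 ng/ml of repeat 2 stood below that at 100 ng/ml of repeat 1, as for TBXT (4.03 against 8.48 CPM) and WNT3 (7.46 against 13 CPM). Groups at 100 and 1000 ng/ml did not overlap for 54 of 84 rising and 21 of 27 falling genes, which were called on that same difference. Over all genes tested 14.3% stood higher and 14.1% lower at 1000 ng/ml without overlap.

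A slope that differed between the repeats was called for 478 genes (2.95%), of which 403 moved in opposite directions and 3 also passed the common trend. That test has 1 residual degree of freedom, and limma-trend called 4 genes. The immediate early gene FOSB had the lowest p. It stood at 137 and 16.7 CPM at 100 ng/ml, 94.0 CPM at 300 ng/ml and 98.1 and 55.2 CPM at 1000 ng/ml (adjusted p = 1.2e-07, edgeR). The matricellular gene CCN1 stood at 145 and 34.6 CPM, then 136 CPM, then 157 and 112 CPM (adjusted p = 3.4e-07, edgeR). For both genes the low library was WNT3A 100 SOX2-positive replicate 2. TXNIP, a thioredoxin inhibitor, stood at 126 and 212 CPM, then 88.7 CPM, then 66.1 and 260 CPM (adjusted p = 4.2e-06, edgeR). Of 15 genes known to respond to tissue dissociation, 5 had slopes that differed (DUSP1, EGR1, FOS, FOSB and JUN), against 2.95% of all genes. The summed level of the 15 was 1210 and 713 CPM at 100 ng/ml, 1100 CPM at 300 ng/ml and 1320 and 1130 CPM at 1000 ng/ml. By the common trend 2 of the 15, IER2 and IER3, were called higher, against 0.519% of all genes. In both repeats 10 of the 15 were higher and 0 lower, against 27.1% and 26.1% of all genes. The median trend of the 15 was 0.47. IER3 stood at 42.7 and 7.71 CPM, then 63.3 CPM, then 112 and 19.6 CPM (1.37 ± 0.10 SE, adjusted p = 9.1e-04, edgeR). The 13 mitochondrially encoded genes summed to 45400 and 54900 CPM at 100 ng/ml, 43700 CPM at 300 ng/ml and 46100 and 51300 CPM at 1000 ng/ml, higher in repeat 2. The summed forebrain genes stood at 142 and 229 CPM, then 86.5 CPM, then 78 and 211 CPM. The part of dissociation, RNA quality or forebrain-like cells in the dose trend was not tested.

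**Figure D3:**
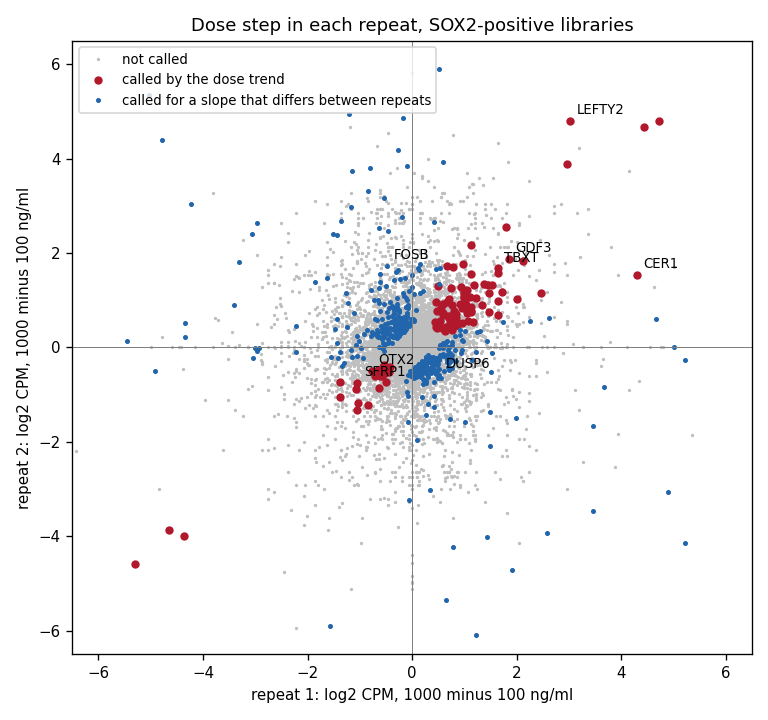
Log2 CPM difference between 1000 and 100 ng/ml in repeat 1 (horizontal axis) and repeat 2 (vertical axis) for the genes tested. Red points were called by the dose trend and lie in the same-direction quadrants; blue points were called for a slope that differs between repeats, 403 of 478 in opposite directions; the grey cloud has a Pearson r of 0.0875 over all genes.

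The single library at 300 ng/ml was read on genes chosen without it. Without that library 288 of 15311 genes were called between 100 and 1000 ng/ml (1.88%), 178 higher (1.16%) and 110 lower (0.718%). At 300 ng/ml 254 of the 288 (88.2%) lay between the repeat 1 libraries at 100 and 1000 ng/ml or, within rounding error, level with either. These ties were AC022826.2, AC105233.6, AC256236.1 and PVRIG2P with the 100 ng/ml library, and AC008764.4 and HSPE1-MOB4 with the 1000 ng/ml library. Counted the same way, the share was 43.5% of all genes tested. It was 75.8% of the 824 genes with at least a 2-fold step in repeat 1. On a scale of 0 at 100 and 1 at 1000 ng/ml the 288 genes had a median position of 0.549 (interquartile range 0.382 to 0.712). All genes tested had the same median of 0.549, with a wider interquartile range of -0.0713 to 1.16. The log dose itself lies at 0.477. The repeat 1 libraries that set 0 and 1 also took part in calling the 288 genes. TBXT lay at 0.431, MIXL1 at 0.519, GDF3 at 0.537, WNT3 at 0.552 and LEFTY2 at 0.629. SFRP1 and OTX2, which fell, lay at 0.636 and 0.70, while CHRD lay at 0.118, near its 100 ng/ml level. A departure from the log dose line passed the test for 20 genes (0.124%), and none of these is a gene described above other than LHX5. Of the 111 graded genes 110 (99.1%) were also called without the 300 ng/ml library, and they made up 38.2% of its calls.

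**Figure D4:**
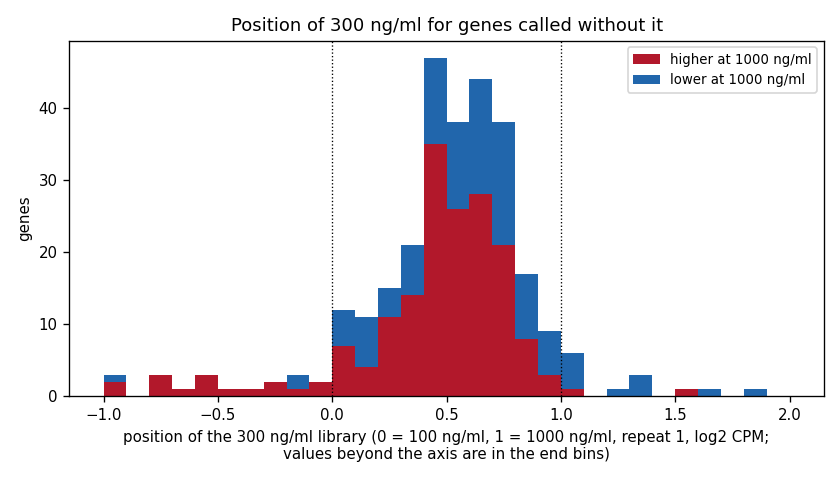
Number of genes (vertical axis) by the position of the 300 ng/ml library between the repeat 1 libraries at 100 (0) and 1000 ng/ml (1) on the log2 CPM scale, for the 288 genes called without it. Bars stack 178 genes higher (red) and 110 lower (blue) at 1000 ng/ml. Of these genes 254 lie between the dotted lines or, within rounding error, on them.

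The last comparison set the trend beside that in the SOX2-negative cells of the same colonies. No gene of 16918 passed the test of a gate by dose difference by edgeR (0%), 1349 had an unadjusted p under 0.05, limma-trend called 0 and DESeq2 49, so nothing is called particular to the SOX2-positive cells. Without WNT3A 100 SOX2-positive replicate 1 edgeR called 1471 genes and without WNT3A 100 SOX2-negative replicate 1 it called 1692. The SOX2-negative libraries alone gave 0 called genes of 16149 for their own trend by edgeR (0%), with 1720 at an unadjusted p under 0.05. Slopes of the 83 rising genes that were tested there had a median of 0.36, and 60 were positive. For the 27 falling genes the median was 0.25, and 16 were positive. Over the 15450 genes tested in both gates the median was 0.011 and 50.7% were positive. LEFTY2 had slopes of 3.59 ± 0.55 and 0.03 ± 0.33 (SE) in SOX2-positive and SOX2-negative cells, and the difference of 3.13 ± 1.23 did not pass (adjusted p = 0.484, edgeR). For SP5 the slopes were 1.00 and -0.95, with a difference of 1.89 ± 0.58 (adjusted p = 0.484, edgeR), while MIXL1 had 1.46 and 1.21.

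Of the 84 rising genes 50 were below the SOX2-negative partner in all 5 pairs of libraries and 12 were above it in all 5. The same counts were not made over all genes tested, so these have no background share to be read against. The 12 genes above their partner were B3GNT7, CCND2, CD9, DCLK1, DIPK2A, GAL, GDF3, SPATS2L, SSTR1, SYT4, TUBB2B and VLDLR. GAL and SYT4 are described after their values were seen. GAL, the gene of the neuropeptide galanin, stood at 145 and 53.8 CPM at 100 ng/ml, 258 CPM at 300 ng/ml and 405 and 120 CPM at 1000 ng/ml, against 20.8 to 114 CPM in the partners (1.32 ± 0.10 SE, adjusted p = 9.1e-04, edgeR). The synaptic vesicle gene SYT4 stood at 24.0 and 27.0 CPM, then 33.7 CPM, then 47.6 and 50.3 CPM (adjusted p = 0.0056, edgeR), and its repeats lay close together at each dose.

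**Figure D5:**
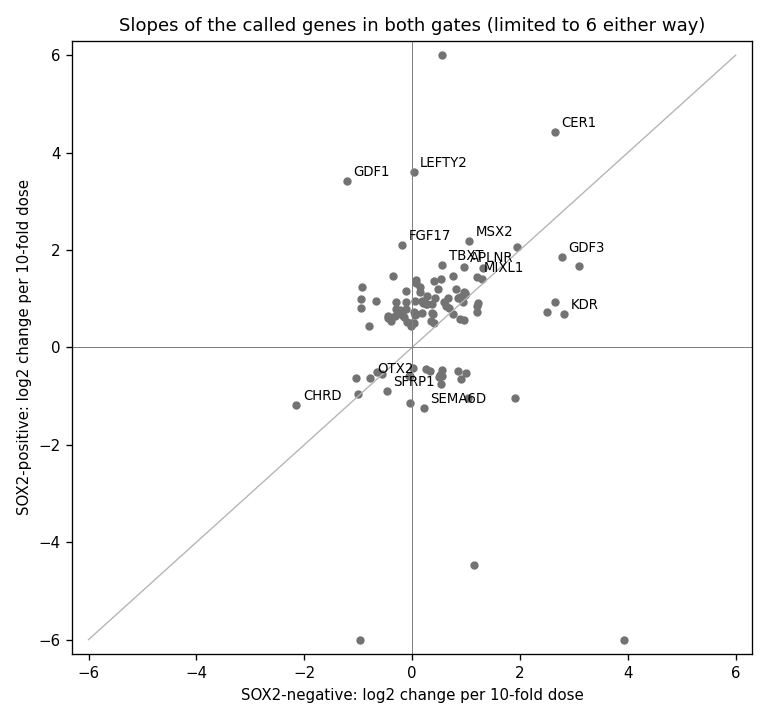
Dose slopes (log2 change per 10-fold WNT3A dose) of the genes called in SOX2-positive cells, in SOX2-negative (horizontal axis) and SOX2-positive cells (vertical axis), limited to 6 either way. Each point is 1 gene and the diagonal marks equal slopes. The genes were chosen by their slope on the vertical axis, so their place relative to the diagonal is not a result; LEFTY2 lies at 3.59 against 0.03.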

How the data were processed

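The authors deposited a table of estimated counts per Ensembl identifier, made with Salmon on GRCh38 per the submitters' processing notes. The version, annotation and strand setting are not given in the sources used here. Its 37951 identifiers were summed to 35940 symbols (1034 symbols held several identifiers) and rounded to whole numbers. All 12 value columns matched a sample.

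Genes passing filterByExpr (minimum count 10, minimum total 15) were fitted with edgeR 4.0.16 in R 4.3.3 (TMM, quasi-likelihood, Benjamini-Hochberg, adjusted p under 0.05). The 5 SOX2-positive libraries entered the dose trend with log10 dose and the repeat as a block, which left 2 residual degrees of freedom. The repeat number marks a biological repeat in the series text. Deviations of libraries with the same number correlated at 0.237, and repeats differed by more than sampling noise (chi-square 22.2 and 28.8 per degree of freedom). All libraries are of 1 line and the p-values reflect how far these libraries scatter, nothing wider. Alternatives used limma 3.58.1, DESeq2 1.42.0, other scaling, filters, dose codings and left-out libraries. On simulated data the dose trend recovered 72% of 2-fold, 80% of 4-fold and 82% of 8-fold changes, with 14 false of 167 calls. The gate by dose test recovered 6%, 54% and 82% of these folds, with 15 false of 89 calls. In both simulations counts were drawn independently, gene by gene, with no difference of dose slopes between repeats. In the data 478 genes were called for such a difference, so these shares need not hold for the libraries themselves.

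Named genes were 32 fixed genes, up to 10 steepest called genes per direction at 1 CPM or more, up to 4 called members per list, and up to 5 with the lowest p for differing repeats. Members and lists were chosen with earlier results of these data known. Gene positions come from GENCODE 29 on GRCh38, which matched 35003 identifiers, and promoters from RefSeq.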

Additional observations from a re-analysis of the deposited data

How the results depend on the processing

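The numbers of genes called higher and lower with dose (84 and 27) were 0 and 0 without the replicate block, 0 and 0 with the block and the spread from all 12 libraries, 278 and 226 without a filter on low counts, 28 and 6 with identifiers kept apart, and 36 and 11 on a linear dose scale. DESeq2 called 126 and 58. Leaving out 1 library gave 46 to 655 higher and 16 to 613 lower, the lowest without WNT3A 1000 SOX2-positive replicate 1 and the highest without WNT3A 100 SOX2-positive replicate 1. RLE scaling, limma-trend, a 1 CPM filter and dose ranks stayed within 1.5 times. Of 42 named genes called, 21 were lost without WNT3A 1000 SOX2-positive replicate 1, 42 without the replicate block, 42 with the spread from all 12 libraries, 33 with identifiers kept apart, 20 on a linear dose scale, 6 by limma-trend, 3 by DESeq2, 3 with the 1 CPM filter and 3 with dose ranks. Departures at 300 ng/ml were called for 20 genes, and for 2 without the replicate block. Slopes that differ between repeats were called for 478 genes, for 4 by limma-trend, 820 without a filter and 69 with the spread of the SOX2-negative libraries included. The gate by dose count of 0 became 49 by DESeq2 with the repeat as a replicate block, and 0 to 1692 with 1 library left out. The Pearson r of the repeats was 0.0875, 0.0687 with a prior count of 0.5 and 0.24 at 5 CPM or more.

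Slopes that changed sign belonged to genes that did not pass the test. FOXH1 was -0.0043 without a filter and -0.00094 with a 1 CPM filter. DUSP6 was -0.040 by DESeq2, -0.034 by limma-trend and -0.019 on a linear dose scale. Without the replicate block LHX5 was 0.37, RAX 0.47, FOSB -0.0027 and AL138752.2 0.39, and AL138752.2 was 0.19 by limma-trend and 1.87 with the spread of 12 libraries. With 1 library left out the slopes ran from -0.033 to 0.18 for TDGF1, -0.14 to 0.14 for FOXH1, -0.23 to 1.75 for DKK1, -0.38 to 0.50 for DUSP6, -0.092 to 0.46 for SPRY4, -1.65 to 0.61 for LHX5 and -3.82 to 0.79 for RAX. They ran from -0.18 to 0.38 for PAX6, -0.85 to 2.06 for CDX2, -0.48 to 1.31 for FOSB, -3.71 to 1.25 for RSC1A1, -15.7 to 8.78 for AL138752.2 and -0.93 to 0.092 for TXNIP. The cause of these changes was not tested. Genes near 1 CPM rest on few counts, and the 300 ng/ml dose on 1 library.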
